A study of Mus musculus with 12 samples.

Results

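MicroRNAs (miRNAs) in livers of 3-week-old mice were compared with those in livers of 2-week-old mice, the interval in which laboratory mice pass from suckling to weaning. The comparison used 6 of the 12 livers of the study, 3 of each age, chosen by the age in their labels, and all 355 mouse probes of the assay. All 6 livers came from male C57Bl/6 mice, an inbred laboratory strain, with no treatment or genetic change given. The labels give no diet and do not say whether the 3-week-old mice had already been weaned. The other livers, 3 from embryonic day 15.5 (e15.5, mixed sex) and 3 from 7-week-old males, entered the statistical fit of the deposited values only through its estimate of the spread. With centring and quantile normalisation, given below as other scalings, all 12 livers also took part in setting the scale. Total RNA was isolated from each liver with Trizol and measured with the nanoString nCounter assay, in which barcoded probes bound to miRNAs are counted without amplification. The titles number separate mice within each age, so errors given here are between mice.

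A miRNA is a short RNA that pairs with messenger RNAs mainly through its bases 2 to 8, the seed, and lowers the output of the messages it binds. miRNAs that share a seed form a family. The imprinted Dlk1-Dio3 region, on mouse chromosome 12, carries a large group of miRNA genes that are transcribed from the maternal chromosome, are abundant in the embryo and are known to be low in most adult tissues. Around weaning the liver turns from milk, rich in fat, to feed rich in carbohydrate, its growth slows and many hepatocytes become polyploid. miR-122 is the most abundant miRNA of the hepatocyte.

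The sequences below belong to the miRNAs on which the results turn. They are mature miRNAs from RefSeq (GRCm38.p6), written 5′ to 3′ with the seed in capitals. Many probe names are of an older kind that names no arm, and the sequence shown is that of the arm the older name stood for. The miR-29 family, which holds the only miRNA called higher at 3 weeks as deposited, shares 1 seed:
miR-29c: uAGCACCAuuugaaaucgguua
miR-29a: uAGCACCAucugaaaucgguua
miR-29b: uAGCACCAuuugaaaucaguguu
Positions counted from the 5′ end, miR-29c differed from miR-29a at 1 of 22 bases (U10C, outside the seed) and from miR-29b at 3 of the first 22 (G18A, U21G and A22U).

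The Dlk1-Dio3 miRNAs, which made up the largest group of falls, have many different seeds, and those named most often below were these:
miR-127: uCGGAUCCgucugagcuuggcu
miR-434-3p: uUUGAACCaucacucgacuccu
miR-136: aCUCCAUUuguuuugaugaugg
miR-411: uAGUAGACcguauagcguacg
miR-495: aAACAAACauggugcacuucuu
miR-376b: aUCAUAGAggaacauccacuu
miR-376a: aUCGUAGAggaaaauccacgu
miR-381: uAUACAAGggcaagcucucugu
miR-300: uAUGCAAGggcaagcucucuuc
miR-154: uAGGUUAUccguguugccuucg
miR-410: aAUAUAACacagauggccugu
2 pairs of them are near copies with different seeds. miR-376b and miR-376a differed at 3 of 21 bases (A4G, in the seed, C13A and U20G), and miR-381 and miR-300 at 3 of 22 (A4G, in the seed, G21U and U22C). How far a probe of 1 near copy also binds the other was not tested.

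The miR-200 family of epithelial cells and the pair miR-99b and miR-125a-5p are shown because they held the clearest falls outside that region:
miR-429: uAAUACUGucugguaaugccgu
miR-200b: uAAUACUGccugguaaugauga
miR-200a: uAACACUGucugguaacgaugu
miR-125a-5p: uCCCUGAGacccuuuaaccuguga
miR-99b: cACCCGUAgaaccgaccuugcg
miR-429 and miR-200b share a seed, with 4 differences outside it (U9C, C19A, C20U and U22A), whereas miR-200a differs from miR-429 within the seed (U4C).

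The values are log2 signals with 1 lowest value, log2 of 0.001, called the floor here and read as at or below background. The total linear signal per liver was 533888 ± 73665 (SD, n = 3) at 2 weeks and 502518 ± 32236 at 3 weeks (exact two-sided permutation test, p = 0.6; the smallest p possible with 3 livers against 3 is 0.1). The number of probes above the floor was 209, 208 and 192 in the 2-week livers and 159, 168 and 167 in the 3-week livers, with no overlap (exact permutation test, p = 0.1). Over the 152 probes above the floor in all 6 livers, Pearson's r between livers of 1 age was 0.958 to 0.988 and between ages 0.909 to 0.939. Within an age the livers were not at 1 level, since 2-week mouse 1 was the highest of its age for 97 of the 152 probes and 3-week mouse 3 the highest of its age for 97. As a check of the tissue, miR-122 was the brightest probe in all 6 livers, the 3 muscle probes and the 1 pancreas probe were at the floor throughout, and so were miR-124 and miR-129-5p of the 4 neural probes. The neural miR-138 was above the floor in all 6 livers (means 4.98 and 4.34 at 2 and 3 weeks), and miR-137 in the 2-week livers only.

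The low values of each sample lay on a lattice. Below 150 linear units every value in every sample equalled a whole number of counts times a step, less a constant, within 0.1 count. The step, the linear value of 1 count, was 1.11, 1.09 and 1.13 in the 2-week livers and 0.784, 0.979 and 0.941 in the 3-week livers. The deposited scaling therefore set the 3-week values lower by 0.31 on the log2 scale, relative to counts, than the 2-week values. Dividing each linear value by its step gave unscaled counts above background, whose total was 480917 ± 65900 (SD, n = 3) at 2 weeks and 562016 ± 68762 at 3 weeks (exact permutation test, p = 0.2). The mean of the 100 brightest probes moved by -0.36 as deposited and by -0.05 on unscaled counts. Results are therefore given as deposited and, where they differ, on unscaled counts. Which of these scales is nearer to the content of the livers was not tested.

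From 2 to 3 weeks 19 of the 51 imprinted miRNA probes of the Dlk1-Dio3 region fell, 9 of them to the floor. miR-29c rose, and as deposited other falls, mostly smaller, were spread over let-7, endothelial, mesenchymal and epithelial miRNAs. Of these lists, only the epithelial miR-429 and miR-200b and the mesenchymal miR-214, which went to the floor, were also lower on unscaled counts. The floor does not move with the scale, so for miR-214 this was no real test. In whole liver, fewer cells of a type and less RNA per cell cannot be told apart. As deposited, limma called 55 of the 355 probes lower at 3 weeks (15.5%) and 1 higher (0.282%), at an adjusted p under 0.05. On unscaled counts 30 were lower (8.45%) and 3 higher (0.845%). After centring each sample on the 100 probes brightest on average over all 12 samples, 36 were lower (10.1%) and 9 higher (2.54%). After quantile normalisation 20 were lower (5.63%) and 6 higher (1.69%). The mesenchymal miR-199a-3p and miR-199a-5p were lower after centring too, and not after quantile normalisation. Without any p-value, every 3-week liver was below every 2-week liver for 85 probes (23.9%) and above it for 7 (1.97%). Among the 152 probes above the floor in all 6 livers these numbers were 63 (41.4%) and 7 (4.61%). 15 probes (4.23%) were above the floor in all 3 2-week livers and at it in all 3 3-week livers, and 0 (0.0%) went the other way. The median change of the 152 was -0.45 as deposited and -0.14 on unscaled counts, with 122 and 86 of them below 0.

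**Figure D1:**
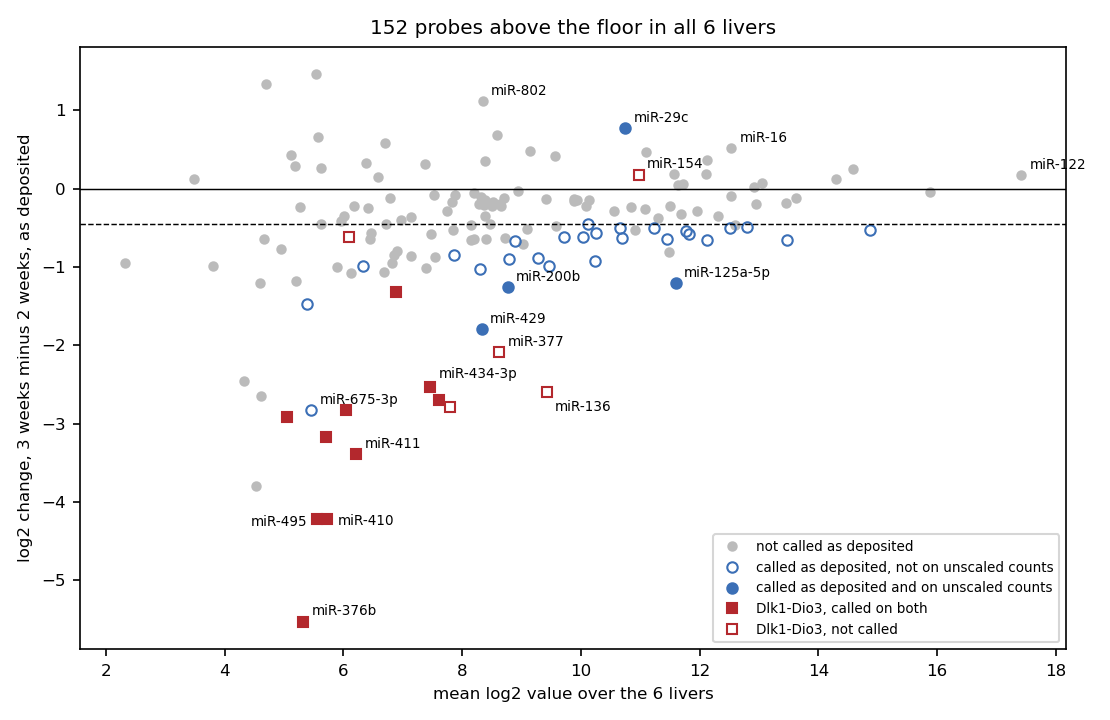
Change from 2 to 3 weeks (vertical axis, log2, as deposited) against the mean log2 value over the 6 livers (horizontal axis) for the 152 probes above the floor in all 6. Each point is 1 probe; the dashed line is the median change of -0.45, and filled blue and red points were called both as deposited and on unscaled counts. The Dlk1-Dio3 probes (squares) reach down to -5.53, while most other called probes lie between -0.45 and -1.5.

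Of the 51 Dlk1-Dio3 probes, 19 were lower at 3 weeks (37.3%, against 15.5% of all probes), as deposited and again on unscaled counts. Of the 19, 9 were at the floor in every 3-week liver. Unscaled counts leave the floor in place, so for these 9 the change of scale was no real test. After quantile normalisation 15 of the 51 were lower, against 5.63% of all probes. Outside the region 36 of 304 probes were lower (11.8%). limma called 0 Dlk1-Dio3 probes higher as deposited or on unscaled counts (at an unadjusted p under 0.05, 0 and 1), and 19 of the 51 stayed at the floor in both ages. Groups did not overlap, with 3 weeks below, for 22 of the 51 (43.1%, against 23.9% of all probes). The summed linear signal of the region was 8045 ± 1253 (SD, n = 3) at 2 weeks and 3114 ± 51.9 at 3 weeks, and 31, 29 and 25 of its probes were above the floor in the 2-week livers against 15, 15 and 16 in the 3-week livers (exact permutation test, p = 0.1 for each). miR-154 alone made up 23.0%, 20.9% and 27.7% of that sum in the 2-week livers and 68.8%, 71.0% and 66.7% in the 3-week livers.

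The region's genes fall into a stretch around Meg3, Rtl1 and Rian and, after it, the miR-379/410 cluster. In the first stretch 4 of 16 probes were lower, against 15.5% of all probes. Of the 16, 9 stayed at the floor in both ages and 2 were above it in all 6 livers. miR-127, which lies antisense to the imprinted gene Rtl1, read 6.40, 6.96 and 7.21 in the 2-week livers and was not above the floor in any 3-week liver. In unscaled counts the 2-week values were 76.0, 114 and 131, so miR-127 was the brightest of the probes that went to the floor. miR-431 and miR-434-5p, from the same antisense stretch, likewise had no 3-week liver above the floor, with 2-week values of 4.32 to 5.54 and 2.41 to 5.71.

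miR-434-3p, the other arm of that hairpin, stayed measurable, at 8.94, 8.79 and 8.45 at 2 weeks and 6.22, 5.72 and 6.65 at 3 weeks. It fell by 2.53 ± 0.31 (SE; limma, adjusted p = 0.000277), and every 3-week liver was below every 2-week liver. miR-136 was the brightest probe of the stretch, at 11.06, 10.75 and 10.37 at 2 weeks and 8.33, 8.09 and 7.96 at 3 weeks. Its groups did not overlap, and their means differed by 2.60 on the log2 scale. miR-136 was not called in the 12-sample fit (adjusted p = 0.693), in which it was at the floor in 2 of the 7-week livers. With only the 6 livers compared it was lower (adjusted p = 0.00396).

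The miR-379/410 cluster held 35 probes, of which 15 were lower (against 15.5% of all probes) and 10 stayed at the floor in both ages. Its 13 probes above the floor in all 6 had a median change of -2.82 as deposited and -2.52 on unscaled counts, against -0.45 and -0.14 for the 152. miR-376b read 8.43, 8.15 and 7.69 at 2 weeks and 2.86, 0.93 and 3.90 at 3 weeks. In unscaled counts these were 311, 260 and 183 against 9.24, 1.94 and 15.9, so the 3-week level rests on few counts. The fall of 5.53 ± 0.64 (SE; adjusted p = 0.000207) was the largest of any probe measured in all 6 livers. miR-376a, the near copy whose gene is next to that of miR-376b, read 7.85, 7.4 and 7.36 at 2 weeks and 6.08, 6.14 and 6.45 at 3 weeks, a fall of 1.32 ± 0.18 (adjusted p = 0.000538). After quantile normalisation miR-376a was not called (adjusted p = 0.414). At 2 weeks miR-376a minus miR-376b was -0.75 to -0.33 within a liver, and at 3 weeks it was 2.55 to 5.21. miR-376c, a further member, fell by 2.70 ± 0.28 (adjusted p = 8.06e-05).

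The other called probes of the cluster that stayed measurable fell by 2.82 to 4.22, with no overlap between ages. miR-495 read 7.77, 7.78 and 7.46 at 2 weeks and 4.36, 3.28 and 2.70 at 3 weeks (adjusted p = 7.58e-05). miR-410, from the far end of the cluster, read 7.97, 7.97 and 7.57 and then 2.86, 3.77 and 4.23 (adjusted p = 6.61e-05). miR-411, from the near end, read 8.10, 8.0 and 7.62 and then 3.67, 4.87 and 5.0 (adjusted p = 0.000277). In each of these 3 all 3-week livers lay well below all 2-week livers. miR-382, miR-539 and miR-329 fell by 3.17, 2.91 and 2.82 (adjusted p = 0.000679, 0.00178 and 0.000368). After quantile normalisation none of them was called lower (adjusted p = 0.110 for both miR-382 and miR-329). A further 6 probes of the cluster went from above the floor in all 2-week livers to the floor in every 3-week liver. These were miR-300 and its near copy miR-381, miR-323-3p, miR-487b, miR-409-5p and miR-541, with 2-week values between 1.62 and 6.15. 2 brighter members, miR-369-3p and miR-377, had no overlap between ages, with means that differed by 2.78 and 2.09. They were lower only in the fit of the 6 livers (adjusted p = 0.00371 and 0.00451, against 0.807 and 0.864 with all 12 samples, in which 1 and 2 of the 7-week livers were at the floor).

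2 members did not follow their neighbours. miR-154 had the highest mean value of the Dlk1-Dio3 probes at either age and read 11.09, 10.65 and 10.92 at 2 weeks and 11.06, 11.14 and 11.00 at 3 weeks. The change of 0.18 ± 0.11 (SE) was not called as deposited (adjusted p = 0.446) or on unscaled counts (0.49, adjusted p = 0.111), and the groups overlapped; after centring it was called higher (adjusted p = 0.017). The gene of miR-377 follows that of miR-154 along the region, and miR-154 minus miR-377 within a liver was 1.05 to 1.52 at 2 weeks and 3.27 to 3.61 at 3 weeks. At the remaining ages it read 8.22 ± 0.07 (SD, n = 3) at e15.5 and 9.79 ± 0.07 at 7 weeks, so its lowest level was in the embryo. miR-543 read 6.28, 6.52 and 6.40 at 2 weeks and 5.15, 6.48 and 5.72 at 3 weeks, which overlap (change -0.62, adjusted p = 0.238). Whether these probes bind other RNAs was not tested.

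**Figure D2:**
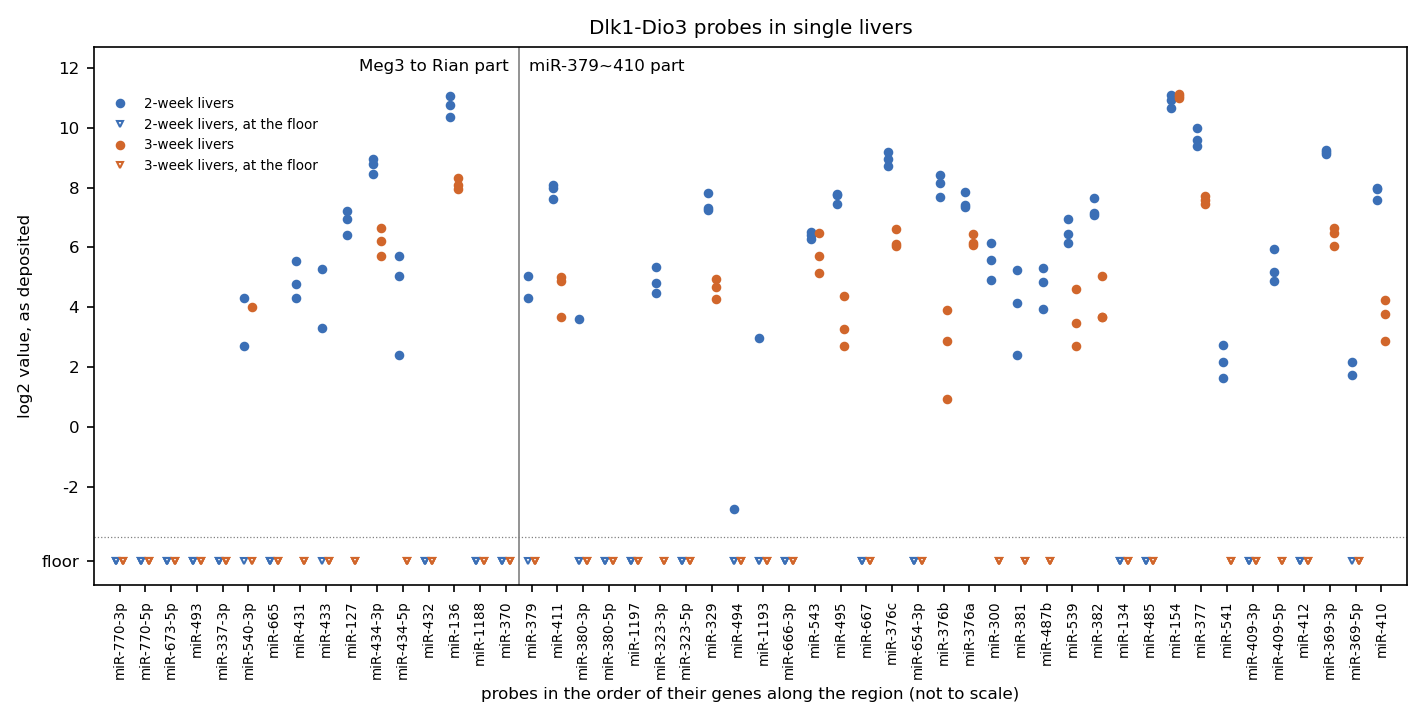
Log2 values (vertical axis, as deposited) of the 50 Dlk1-Dio3 probes that were matched to a RefSeq gene, in the order of their genes along the region (horizontal axis, not to scale). Filled points are single livers at 2 weeks (blue) and 3 weeks (orange), and open triangles are livers at the floor. The 3-week points lie below the 2-week points at nearly every measured probe on either side of the vertical line, which divides the stretch up to Rian from the miR-379/410 cluster; miR-154 is level near 11.

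Of the 7 probes of other imprinted genes, 2 were lower as deposited, against 15.5% of all probes, and 1 on unscaled counts, against 8.45%. miR-483, which lies in an intron of Igf2, read 3.61, 2.96 and 1.62 at 2 weeks and was not above the floor in any 3-week liver. miR-675-3p, made from the fetal liver RNA H19, read 7.09, 6.91 and 6.6 at 2 weeks and 3.01, 3.96 and 5.16 at 3 weeks, without overlap. Its fall of 2.82 ± 0.76 (SE; adjusted p = 0.0298) was not called on unscaled counts (adjusted p = 0.0838) and was lost without any 1 of the 3 2-week livers or without 3-week mouse 1 or 2 (adjusted p up to 0.129). miR-335-5p, from an intron of Mest, was 9.26, 8.84 and 9.0 and then 8.4, 8.42 and 8.39 (change -0.63, adjusted p = 0.0849), also without overlap. Of the 16 probes of the Sfmbt2 cluster, a rodent miRNA cluster in another imprinted gene, 7 stayed at the floor in both ages. As deposited limma called 0 of the 16, against 15.5% lower of all probes (1 lower at an unadjusted p under 0.05).

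miR-29c was the only probe called higher as deposited. It read 10.42, 10.31 and 10.34 at 2 weeks and 11.11, 11.12 and 11.17 at 3 weeks. It rose by 0.78 ± 0.11 on the log2 scale (SE; limma, adjusted p = 0.000522), or 1.72-fold, and by 1.09 on unscaled counts (adjusted p = 0.00447). The 3 livers of each age lay within 0.11 of each other, and the ages did not overlap. miR-29 miRNAs are known to lower collagen messages and the DNA methyltransferases Dnmt3a and Dnmt3b.

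The other family members moved less. miR-29b was 8.96, 8.73 and 9.01 and then 9.22, 9.27 and 9.65 (change 0.48, adjusted p = 0.216; groups apart). miR-29a was 12.04, 12.09 and 11.93 and then 12.19, 12.06 and 12.38 (change 0.19, adjusted p = 0.299; groups overlapping). Within a liver miR-29c minus miR-29a was -1.78 to -1.60 at 2 weeks and -1.22 to -0.95 at 3 weeks. The miR-29a and miR-29b values were called higher after centring and after quantile normalisation and not on unscaled counts (adjusted p = 0.0882 and 0.126). The summed linear signal of the family was 5947 ± 203 (SD, n = 3) at 2 weeks and 7683 ± 690 at 3 weeks (exact permutation test, p = 0.1).

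**Figure D3:**
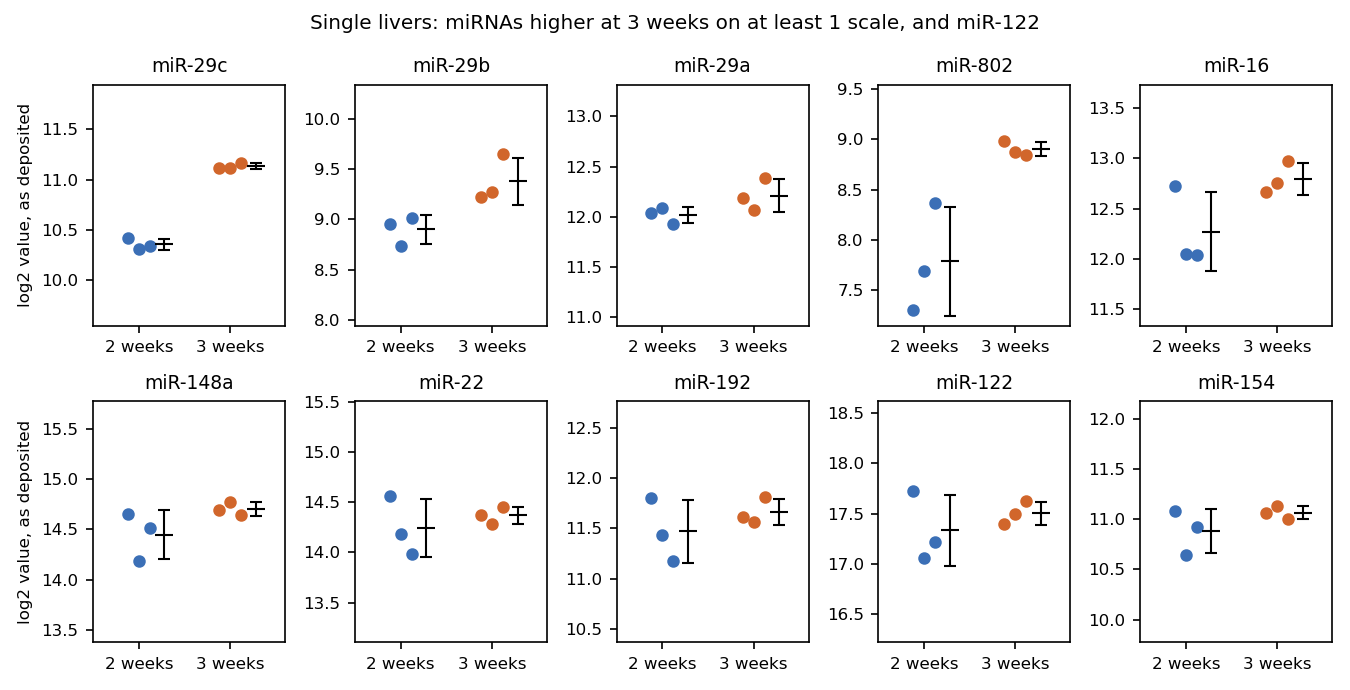
Log2 values (vertical axes, as deposited) of single livers at 2 weeks (blue) and 3 weeks (orange) for 9 miRNAs called higher at 3 weeks after centring, and for miR-122. Bars are the mean ± SD of 3 livers, and every panel spans the same number of log2 units. miR-29c, miR-29b and miR-802 have no overlap between ages; in the other panels 2-week mouse 1 or another 2-week liver reaches the 3-week values.

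limma called 0 of the 11 hepatocyte probes as deposited (2 higher at an unadjusted p under 0.05, and 5 higher on unscaled counts), and all 11 were above the floor in all 6 livers. Their median change was 0.17 as deposited and 0.48 on unscaled counts, against -0.45 and -0.14 for the 152. miR-122 read 17.73, 17.06 and 17.22 at 2 weeks and 17.40, 17.49 and 17.63 at 3 weeks, which overlap. Its share of the total linear signal, which no scaling of a whole sample changes, was 35.1%, 28% and 30.8% at 2 weeks and 35.3%, 38.6% and 37.6% at 3 weeks (exact permutation test, p = 0.1). miR-802, a liver miRNA known to impair insulin signalling in obese mice, read 7.30, 7.70 and 8.37 at 2 weeks and 8.99, 8.88 and 8.85 at 3 weeks. The groups did not overlap, and their means differed by 1.12 ± 0.34 (SE). This was just short of the threshold as deposited (adjusted p = 0.0543) and on unscaled counts (1.42, adjusted p = 0.0533), and past it after centring (adjusted p = 0.0275).

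miR-148a, which acts on cholesterol uptake through the LDL receptor, was 14.65, 14.18 and 14.51 at 2 weeks and 14.69, 14.78 and 14.65 at 3 weeks. On unscaled counts it rose by 0.56 (adjusted p = 0.0468). miR-192 and miR-22 differed by 0.19 and 0.13 as deposited, without a call. miR-192 was called higher after centring and after quantile normalisation (adjusted p = 0.0322 and 0.0171), and miR-22 after centring (adjusted p = 0.0212); on unscaled counts neither was (adjusted p = 0.353 and 0.135). miR-365 was 8.43, 8.14 and 8.07 and then 8.54, 8.45 and 8.73, without overlap. Its change of 0.36 was not called as deposited (adjusted p = 0.555) or on unscaled counts (0.67, adjusted p = 0.388), and was called higher after quantile normalisation (0.94, adjusted p = 0.0124). miR-193 was 5.85, 4.72 and 3.84 and then 5.68, 6.43 and 6.69 (change 1.46, adjusted p = 0.135). The largest negative hepatocyte value was that of miR-101b, -0.53, with overlap.

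In the miR-15/16 family, known for arresting cells in G1 by lowering cyclins, limma called 0 of 6 probes as deposited (1 higher and 1 lower at an unadjusted p under 0.05). miR-16 was 12.73, 12.05 and 12.04 at 2 weeks and 12.66, 12.76 and 12.97 at 3 weeks, with 2-week mouse 1 among the 3-week values. It rose by 0.83 on unscaled counts (adjusted p = 0.0183), against 0.52 as deposited (adjusted p = 0.0884). miR-15a and miR-15b stayed within 0.25 of their 2-week means as deposited (0.05 and -0.21). Of 4 miRNAs tied to lipid and glucose metabolism, miR-33, miR-103, miR-107 and miR-378, limma called 0 (0 at an unadjusted p under 0.05 as deposited, and 1 higher on unscaled counts). miR-33, which lies in an intron of Srebf2 and lowers the cholesterol exporter Abca1, was 5.36, 5.38 and 4.97 and then 5.56, 6.16 and 5.98, apart without a call (change 0.66, adjusted p = 0.536).

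Among markers of other cells, the miR-200 family of epithelia, which in liver marks bile ducts, showed the largest changes among probes above the floor in all 6 livers. miR-429 read 9.16, 9.20 and 9.31 at 2 weeks and 7.42, 7.00 and 7.87 at 3 weeks, a fall of 1.79 ± 0.33 (SE; adjusted p = 0.00309; on unscaled counts 0.0278). miR-200b, from the same hairpin cluster and with the same seed, read 9.25, 9.42 and 9.51 and then 7.95, 8.01 and 8.47, a fall of 1.25 ± 0.19 (adjusted p = 0.000937; on unscaled counts 0.0236). miR-200a, the third of that cluster with another seed, was 8.76, 8.84 and 8.57 and then 8.0, 7.80 and 8.46, without overlap. Its means differed by 0.64 without a call (adjusted p = 1 with all 12 samples, where 2 of the e15.5 livers were at the floor, and 0.116 with the 6). Within a liver miR-429 minus miR-200a was 0.35 to 0.73 at 2 weeks and -0.80 to -0.58 at 3 weeks. miR-200c and miR-141, of the other cluster, had floor values and overlapped. As deposited 2 of these 5 epithelial probes were lower, against 15.5% of all probes, and on unscaled counts 2 were, against 8.45%. After quantile normalisation 0 of the 5 were lower, against 5.63% of all probes (miR-200b and miR-429, adjusted p = 0.0567 and 0.599).

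Of 5 mesenchymal probes, which mark stellate and smooth muscle cells, 3 were lower, against 15.5% of all probes. miR-199a-3p read 10.69, 10.74 and 10.68 at 2 weeks and 9.90, 9.67 and 9.78 at 3 weeks, and fell by 0.92 ± 0.15 (SE; adjusted p = 0.00129). miR-199a-5p fell by 0.89 ± 0.15 (adjusted p = 0.00178). miR-214, transcribed together with miR-199a-2, went from 5.44, 4.14 and 4.05 to the floor in every 3-week liver. miR-143 and miR-145 overlapped, with changes of -0.13 and -0.37. On unscaled counts miR-214 alone of the 5 was called (miR-199a-3p and miR-199a-5p, adjusted p = 0.0882 and 0.19). Since its 3-week floor values do not move with the scale, this was no real test of miR-214. After centring miR-199a-3p and miR-199a-5p were called lower (-0.56 and -0.53, adjusted p = 0.0451 and 0.0252). After quantile normalisation neither was (adjusted p = 0.111 and 0.241).

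The endothelial miR-126-3p was the third brightest probe at 2 weeks, at 15.35, 15.13 and 14.94, and read 14.65, 14.50 and 14.68 at 3 weeks. It fell by 0.52 ± 0.10 (SE; adjusted p = 0.0033) as deposited, was not called on unscaled counts (-0.22, adjusted p = 0.593), and was not called with the 6 livers alone (adjusted p = 0.0745). Of 8 leukocyte probes 1 was lower, against 15.5% of all probes. This was the myeloid miR-223, which went from 9.13, 9.44 and 9.13 to 8.35, 8.34 and 8.30 (-0.90 ± 0.12 SE, adjusted p = 0.000368). On unscaled counts its change was -0.59 (adjusted p = 0.0882). After centring miR-223 was called lower (-0.54, adjusted p = 0.0342), and after quantile normalisation it was not (adjusted p = 0.194). Of the 3 erythroid probes limma called 0 (0 at an unadjusted p under 0.05). Their summed linear signal was 8987 to 10801 at 2 weeks and 9643 to 11275 at 3 weeks, and miR-144 was 0.47 higher without overlap (adjusted p = 0.368). Of the 4 neural probes 1 was lower, against 15.5% of all probes. This was miR-137, which no 3-week liver had above the floor after 2-week values of 2.07 to 4.14.

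The let-7 family, known for promoting differentiation and lowering growth genes such as Lin28 and Hmga2, had 9 probes, all measured in all 6 livers. limma called 4 lower as deposited, against 15.5% of all probes and 38 of the 152 above the floor in all 6 livers. On unscaled counts it called 0 (1 lower at an unadjusted p under 0.05). let-7d read 13.82, 13.75 and 13.82 at 2 weeks and 13.13, 13.06 and 13.24 at 3 weeks, and fell by 0.65 ± 0.09 (SE; adjusted p = 0.00073; on unscaled counts -0.34, adjusted p = 0.205). let-7i and let-7e fell by 0.64 and 0.63, and let-7b fell by 0.50, a call lost without any 1 of the 6 livers or without 7-week mouse 1 or 2 (adjusted p up to 0.137). let-7a, let-7c and let-7g were not called, with values of -0.18, -0.20 and -0.12 and overlapping groups. The family's median was -0.50 as deposited and -0.19 on unscaled counts, near the -0.45 and -0.14 of the 152.

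In the families of miR-99, miR-100, miR-125a and miR-125b 3 of 6 probes were lower as deposited, against 15.5% of all probes, and 1 of 6 on unscaled counts, against 8.45%. miR-125a-5p read 12.44, 12.18 and 11.98 at 2 weeks and 11.00, 10.86 and 11.13 at 3 weeks. It fell by 1.2 ± 0.20 (SE; adjusted p = 0.00178), and by 0.90 on unscaled counts (adjusted p = 0.0289). It was 1 of 4 probes outside Dlk1-Dio3 that were lower under all 4 scalings tried (as deposited, centred, unscaled and quantile-normalised), and of these the only one above the floor in all 6 livers; the others were miR-137, miR-331-3p and miR-483. miR-99b, from the same cluster, was 8.88, 8.83 and 8.71 and then 7.74, 7.52 and 8.08 (-1.02 ± 0.22 SE, adjusted p = 0.00806; on unscaled counts 0.286). Within a liver miR-125a-5p minus miR-99b was 3.27 to 3.56 at 2 weeks and 3.04 to 3.34 at 3 weeks, so the pair moved nearly together. miR-99a fell by 0.61 as deposited (adjusted p = 0.00418) and was not called on unscaled counts (-0.30, adjusted p = 0.461), while miR-125b-5p and miR-100 overlapped, with changes of -0.33 and -0.21.

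Several growth-linked families had calls as deposited that were absent on unscaled counts. In the miR-17/92 cluster and its paralogs, which promote cell proliferation, 3 of 7 probes were lower, with the joint probe for miR-20a and miR-20b at -0.66 ± 0.09 (SE; adjusted p = 0.000522), miR-25 at -0.50 and miR-19a at -0.45. The call of miR-25 was lost without 3-week mouse 2 (adjusted p = 0.0578). In the miR-30 family 2 of 5 were lower, miR-30a at -0.54 and miR-30c at -0.49. In each case this stands against 15.5% of all probes and 38 of the 152 above the floor in all 6 livers. The miR-30a call was lost without any 1 of 9 of the 12 samples (adjusted p up to 0.146). miR-27a (-0.57) in the miR-23/27/24 clusters and miR-26b (-0.50) were lower too. On unscaled counts 0 of these 19 probes was called by limma in either direction (1 lower at an unadjusted p under 0.05). The joint probe for miR-20a and miR-20b was called lower after quantile normalisation (-0.54, adjusted p = 0.0321) and not after centring (adjusted p = 0.157). miR-130b, dim but tight, went from 6.11, 6.13 and 6.15 to 4.75, 4.72 and 4.49 (-1.47 ± 0.34 SE, adjusted p = 0.011; on unscaled counts 0.182). miR-181a went from 10.11, 9.89 and 9.88 to 9.06, 8.86 and 8.99 (-0.99 ± 0.13 SE, adjusted p = 0.000522, and on unscaled counts 0.0981). After centring miR-130b and miR-181a were both called lower (adjusted p = 0.0475 and 0.0066). After quantile normalisation neither was (adjusted p = 0.983 and 0.102).

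**Figure D4:**
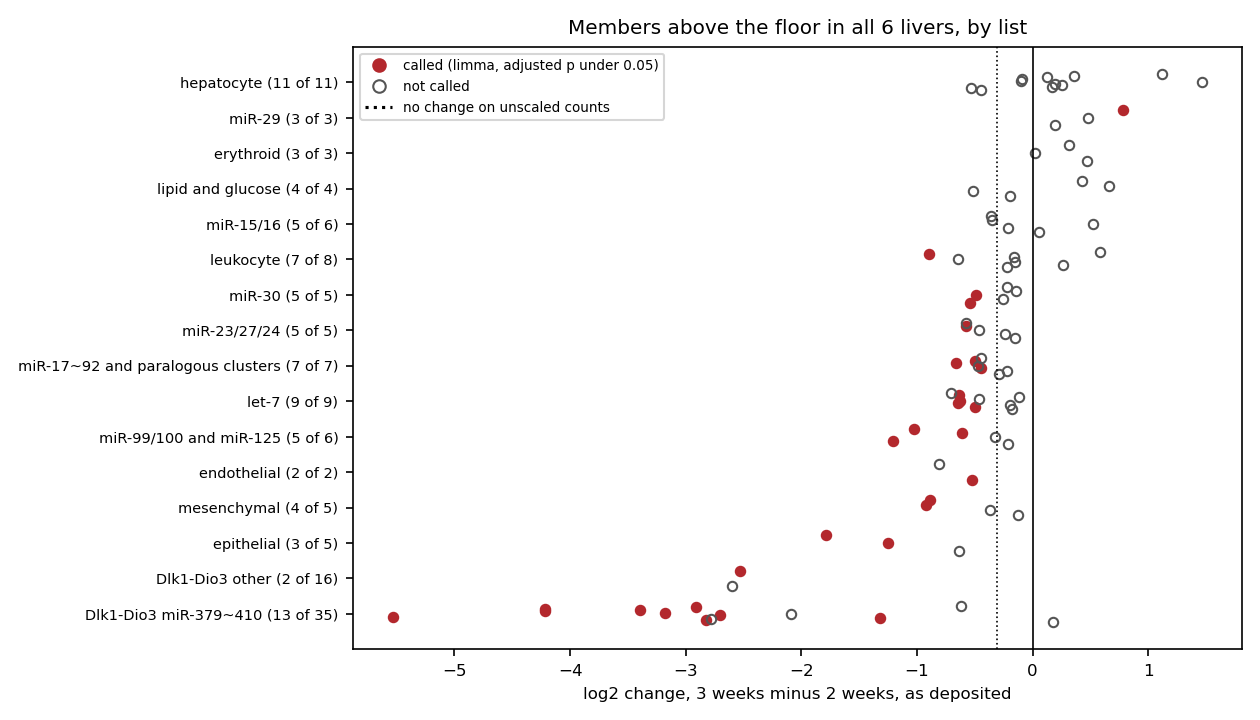
Change from 2 to 3 weeks (horizontal axis, log2, as deposited) of the probes above the floor in all 6 livers, by list (vertical axis; in brackets, how many of the list's probes are shown). Each point is 1 probe and filled points were called by limma at an adjusted p under 0.05. The dotted line marks a change of -0.31, which is 0 on unscaled counts; the let-7, miR-17/92 and miR-30 points lie close to it, the Dlk1-Dio3 points mostly beyond -2, and the miR-29 points to the right of 0.

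The 55 lower calls thus divided by scale. After centring 36 of the 55 were also lower, 19 of them Dlk1-Dio3 probes. Outside the region miR-181a, miR-223, miR-130b, miR-199a-3p and miR-199a-5p stayed lower after centring and were not called on unscaled counts. Of the 36 probes outside Dlk1-Dio3 that were lower as deposited, 11 were also lower on unscaled counts. Among these 11, only miR-125a-5p, miR-429 and miR-200b were measurable in every 2-week and 3-week liver. The rest of the 11 were at the floor in most or all 3-week livers. Unscaled counts keep the floor where it is, so for the rest the change of scale was no real test. Of the 55, 38 were above the floor in all 6 livers and 17 had floor values, for which the size of the change is not given. The probes that went to the floor outside Dlk1-Dio3 were miR-137, miR-184, miR-214, miR-331-3p, miR-455 and miR-483. All were dim at 2 weeks, between 0.15 and 5.44 on the log2 scale, where 5.44 is about 39 counts. In the short lists built around miR-34, miR-10, miR-221 and miR-183 and in that of pluripotent cell miRNAs limma called 0 probes (1 lower at an unadjusted p under 0.05, miR-196a, above the floor in 2-week mouse 2 and 3 only).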

How the data were processed

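The deposited table holds log2 values for 355 mouse probes in 12 liver samples; 6 probes name 2 miRNAs each. Partek 6.6 is the tool named per the submitters' processing notes; the authors' background subtraction and scaling are not given in the sources used here. The table has no raw counts, so no counting interval was computed, and depth is given as total signal and as unscaled counts (439417 to 624819 per liver compared).

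The test was limma 3.58.1 in R 4.3.3, with a mean for each age over all 12 samples (eBayes with trend, two-sided, Benjamini-Hochberg over 355 probes, threshold 0.05). Adjusted p-values in the text are from limma. Single values per liver were compared by exact two-sided permutation tests in scipy 1.17.1 (Python 3.11.15; figures with matplotlib 3.10.9). Where all 3 livers of an age are at the floor they show no spread, so the p-value of such a probe is no measure of precision and no fold is given. The step of each sample was found from linear values below 150, with a tolerance of 0.1 count.

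The members, the 29 miRNA lists and the rule for named probes were chosen with earlier results of these data known. The rule named the 15 largest falls and 10 largest rises among called probes above the floor in all 6 livers, probes lost to the floor, every member of a list with no more than 6 probes and the called or measured members of longer lists, the 10 brightest of either age, and probes whose sign changes with centring. Pairs of probes set against each other within a liver were chosen after their values were seen. 50 of 51 Dlk1-Dio3 probes matched a RefSeq gene (GRCm38.p6). Alternatives were other scalings, filters, offsets of 1 and 10, no variance trend, the 6 livers alone, leaving out single samples, and a block for mouse number; unscaled counts were added after seeing the data. The steps were tested on simulated data.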

Additional observations from a re-analysis of the deposited data

How the results depend on the processing

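Against 55 probes lower at 3 weeks than at 2 weeks as deposited, centring on the 100 brightest probes gave 36, quantile normalisation 20 (5.63%), centring on the median of the 114 probes above the floor in all samples 29, and unscaled counts 30. Other settings gave 42 to 68, the highest with log2(linear + 10) (19.2%), and 59 (16.6%) with the 6 livers alone. Leaving out 1 sample at a time gave 49 to 59. Against 1 of the probes higher at 3 weeks than at 2 weeks, centring on the brightest probes gave 9, quantile normalisation 6 (1.69%), centring on the median 9, unscaled counts 3, and only probes above the floor in all 6 livers, log2(linear + 1), log2(linear + 10) (0.563%) and no variance trend gave 2 each; leaving out 1 sample gave 1 to 3. miR-29c was called in each setting and each left-out sample. Deviations of same-numbered 2-week and 3-week livers correlated at -0.29, 0.18 and 0.07 over those 114 probes, so the mouse numbers were not taken as pairs; the mouse number as a replicate block gave 49 lower and 1 higher. The difference in total linear signal per liver, -31370.5 (3 weeks minus 2 weeks), was 81098.8 on unscaled counts, 11073.4 without 2-week mouse 1, and -54943.2 to 11073.4 over the left-out livers. The cause was not tested. Of the 55 lower calls 47 held without each sample in turn and 8 did not. Probes with few counts above background limit the size of the largest falls, and 3 livers per age cannot give an exact p below 0.1.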

Other observations

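The 10 brightest probes took 68.5 ± 2.10% (SD, n = 3) of the total linear signal at 2 weeks and 73.2 ± 0.67% at 3 weeks (exact permutation test, p = 0.1, the smallest possible). After miR-122 came miR-720, at 15.90 and 15.86 on the log2 scale, a sequence since assigned to a transfer RNA and not to a miRNA gene. miR-451, the erythroid miRNA, stood at 12.90 and 12.92 and was among the 10 brightest at 3 weeks only.

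The 12-sample fit shares 1 spread over 4 ages, and 25 probes above the floor in all 6 livers had every 3-week liver below every 2-week liver without being called. Of these 25, 13 had floor values at e15.5 or 7 weeks, and 10 were called when the 6 livers were fitted alone, among them miR-136, miR-369-3p, miR-377, miR-335-5p and the let-7 family member miR-98 (-0.70, adjusted p = 0.0763 with all samples and 0.0379 with the 6).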
